A study of Mus musculus with 6 samples.

Results

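The liver makes most of the proteins that circulate in blood plasma. Here 43 genes for such proteins were examined in livers of mice with the CoQ side-chain gene Pdss2 targeted in hepatocytes. These 43 genes comprise 19 of coagulation, 15 of complement and 9 of carrier and other plasma proteins. All probe sets of the array that are annotated to exactly 1 of these symbols were taken, which gave 55 probe sets of 42 genes, out of 34958 probe sets and 18194 genes with 1 symbol in the whole table. The remaining symbol, C3, is on no probe set of 1 symbol in the annotation used and was not analysed here, so the complement class holds 14 genes.

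In coagulation, serine proteases made as inactive precursors (factors such as prothrombin, factor VII, factor IX and factor X) activate each other in turn until thrombin turns fibrinogen into fibrin, and antithrombin, heparin cofactor II, protein C and protein S hold this cascade in check. Complement is a second protease cascade of plasma. It is opened by lectins, antibodies or a spontaneous route, and it ends in a pore built from C5 to C9. Albumin, transthyretin and retinol binding protein carry ligands in plasma, and the inter-alpha-trypsin inhibitor heavy chains are bound to hyaluronan of the matrix. Hepatocytes are the main source of most of these proteins.

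Livers of 3 mutants (B6.Alb/cre,Pdss2loxP/loxP) were set against those of 3 controls (B6.Pdss2loxP/loxP), all from male mice, on Affymetrix arrays that each took the RNA of 1 animal. Mutants 1 to 3 had reached 176, 178 and 224 days, and controls 1 to 3 had reached 209, 213 and 140 days. Both groups are homozygous for the floxed Pdss2 allele. The mutants also carry cre recombinase under the albumin promoter, which the authors used to target hepatocytes. The presence of cre and the loss of Pdss2 therefore cannot be told apart here. Whether cre was active in other cells of liver was not tested. The genotypes were caged apart, and food had been withdrawn 3 hours before death. Expression is given as the log2 value that the authors deposited for each probe set, and differences are mutant minus control on this scale. Each gene was read on its brightest probe set, the one with the highest mean over the 6 arrays, and a gene is said to have risen or fallen only when its limma p, adjusted by the Benjamini-Hochberg method over all 18194 genes, was under 0.05. For 1 gene, an exact permutation test of 6 mice in these groups cannot reach a p below 0.1.

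On its brightest probe set Pdss2 gave 6.94, 6.88 and 7.05 for the mutants, against 7.46, 7.47 and 7.56 for the controls, in numerical order (difference -0.54, adjusted p = 0.0792 from limma), but its other probe sets differed by 0.40 and 0.35, and their place relative to the deleted exon is unknown here. These probe sets therefore give no check of the labels. Of 13 measured hepatocyte enzymes that are not secreted, all were above the upper quartile of each of the 6 arrays, and 0 rose or fell in limma's adjusted test (1 was higher at an unadjusted p under 0.05). On their brightest probe sets 4 of 12 markers of sinusoidal endothelium rose (Stab1, Stab2, Ehd3 and Ptprb) and none fell. Of all genes 9.03% were called. The other probe set of Ehd3 differed by 0.009, with overlap, and those of Ptprb by 1.01 and 0.30. Summed log2 values of the 12 markers were 98.4 to 106 in mutants and 91.6 to 97.4 in controls, with no group mean below 5.51. Of 10 markers of Kupffer cells 1 rose (Clec4f), with summed log2 values of 68.3 to 72.8 in mutants and 63.5 to 68.1 in controls. Of 5 markers of bile duct cells 1 rose (Krt19), with sums of 30.5 to 32.1 in mutants and 28.2 to 28.7 in controls. Many of these markers were dim, with group means down to 4.83 for Kupffer cells and 4.66 for bile duct. Only 2 of the 10 and 0 of the 5 exceeded the upper quartile of each array. Medians of whole arrays ran from 6.12 to 6.24 in mutants and from 5.92 to 6.12 in controls. Whether the higher sums reflect more of these cells was not tested. Of 8 markers of stellate cells, 7 of lymphocytes and 3 of red cells 0 passed limma's adjusted test. At an unadjusted p under 0.05 there were 2, 1 and 1, beside 31.0% of all genes. Of the array's probe sets for RNA quality, Gapdh 3' gave 11.92, 10.45 and 9.84 for the mutants and 11.96, 11.83 and 12.31 for the controls, and Gapdh 5' gave 11.46, 11.51 and 11.61 for the mutants and 9.64, 9.81 and 10.01 for the controls. The 3' minus 5' difference was 0.45, -1.06 and -1.78 for the mutants and 2.31, 2.02 and 2.30 for the controls, lower in every mutant, while that of Actb was 2.60, 3.95 and 4.50 against 3.82, 3.90 and 3.11, with overlap. The spiked-in bacterial BioB controls were brighter on the mutant arrays, by 1.81 on average. The part of these differences in the results below was not tested.

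In mutant livers Mbl2, for a mannose-binding lectin of complement, and F9, for coagulation factor IX, fell, and Hc, for complement C5, and Itih3, for an inter-alpha-trypsin inhibitor heavy chain, rose. These were the only members past the adjusted p, 4 of 42 or 9.52%, and 9.03% of all 18194 genes passed, so the share of changed genes among the plasma proteins was near that of the whole array. By direction 2 members rose (4.92% of all genes did) and 2 fell (4.11% of all genes did). With quantile normalization the split was 1 risen and 3 fallen, and after centring arrays on their medians it was 0 risen and 2 fallen. At an unadjusted p under 0.05 from limma 5 members were higher and 7 lower, 12 in all, against 31.0% of all genes. Mutants lay wholly above the controls in 5 members and wholly below them in 11, together 38.1% of the 42. Among all genes 23.3% lay wholly above and 14.1% wholly below, together 37.4%. Over the 42 members the median difference was -0.23, and 28 of them were negative, beside a median of 0.17 over all genes, of which 64.3% were positive. The median of all genes was 0.06 with quantile normalization and 0.01 with median centring, while that of the members was -0.27 and -0.39. None of the 4 calls held without any 1 of mutant 2, mutant 3, control 1, control 2 or control 3, and without mutant 1 the count was 14. On the whole array 106, 157, 5, 0 and 255 of 18194 genes were called in those 5 runs and 3023 without mutant 1, beside 1643 with all mice. When all 34958 probe sets were fitted, 0 of the 55 of these genes passed limma's adjusted p (smallest 0.0513), although 17 had an unadjusted p under 0.05. Of all probe sets 3.79% passed the adjusted p and 26.9% the unadjusted one.

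**Figure D1:**
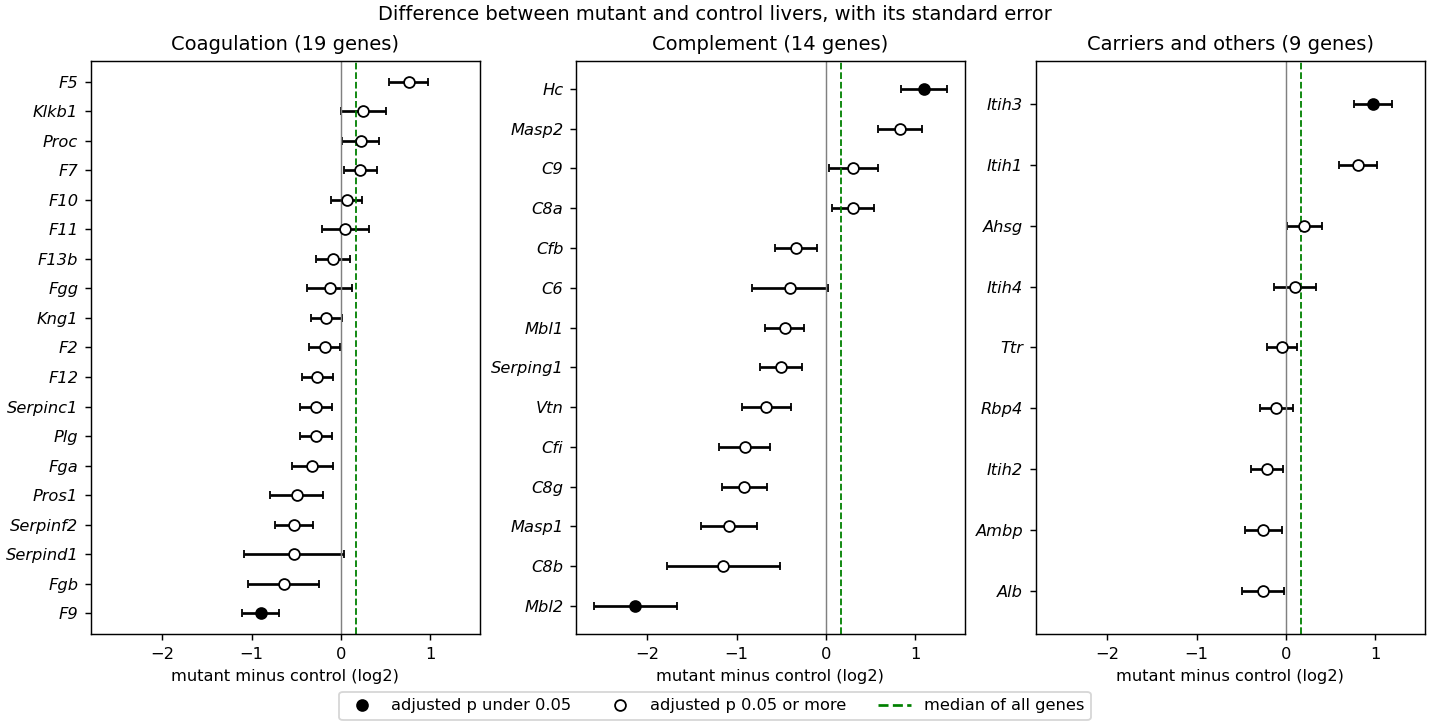
Difference between 3 mutants and 3 controls (horizontal axis, log2, bars: standard error from limma) for each of 19 coagulation, 14 complement and 9 carrier and other plasma protein genes (vertical axis). Filled points passed the adjusted p (F9, Hc, Mbl2 and Itih3), and the dashed line at 0.17 is the median of all genes.

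The 4 genes that passed the test are given first. The bases just before the start of each are shown because factors of liver transcription can bind there and because 2 of these genes rose and 2 fell. They are the 250 bases before the annotated start from RefSeq, build GRCm38.p6, read 5′ to 3′ on the strand of the gene, at chrX:59999214-59999463 (+ strand) for F9, chr2:35061413-35061662 (- strand) for Hc, chr19:30232678-30232927 (+ strand) for Mbl2 and chr14:30923588-30923837 (- strand) for Itih3. Capitals mark a match on either strand to the HNF1 motif GTTAAT, the HNF4 repeat CAAAGTCCA or the C/EBP motif TTGCNNAA, which do not overlap in these windows.
Mbl2: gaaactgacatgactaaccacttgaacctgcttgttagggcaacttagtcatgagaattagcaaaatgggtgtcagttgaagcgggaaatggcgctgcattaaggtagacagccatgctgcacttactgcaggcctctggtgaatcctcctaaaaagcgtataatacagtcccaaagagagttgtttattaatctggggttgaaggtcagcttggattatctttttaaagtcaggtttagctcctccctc
F9: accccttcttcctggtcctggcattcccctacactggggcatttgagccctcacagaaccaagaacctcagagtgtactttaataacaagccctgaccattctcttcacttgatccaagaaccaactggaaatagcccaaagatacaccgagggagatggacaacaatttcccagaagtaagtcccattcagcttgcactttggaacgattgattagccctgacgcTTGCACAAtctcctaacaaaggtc
Hc: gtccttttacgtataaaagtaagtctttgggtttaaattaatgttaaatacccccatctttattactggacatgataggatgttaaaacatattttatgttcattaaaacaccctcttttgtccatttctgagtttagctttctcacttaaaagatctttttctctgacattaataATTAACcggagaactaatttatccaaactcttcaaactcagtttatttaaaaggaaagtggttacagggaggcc
Itih3: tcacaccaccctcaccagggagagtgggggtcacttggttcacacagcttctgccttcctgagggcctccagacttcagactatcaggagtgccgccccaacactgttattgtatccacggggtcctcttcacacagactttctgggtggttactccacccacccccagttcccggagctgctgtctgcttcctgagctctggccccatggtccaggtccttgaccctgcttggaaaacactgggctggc
The window of F9 held 1 C/EBP match, 24 to 17 bases before the start, and that of Hc held 1 HNF1 match, 74 to 69 bases before it. The windows of Mbl2 and Itih3 held no match. Windows were given for 34 of the 42 genes. A match to the HNF1 motif was present in 9 of the 34 (26.5%, against 7.49% of 27025 genes with a window), to C/EBP in 10 (29.4%, against 10.8%) and to the HNF4 repeat in 0 (0.451% of all genes). These matches are letters in a window and do not show a bound site.

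Mbl2, whose product binds mannose-rich surfaces of microbes and opens the lectin route of complement, read 10.41, 8.55 and 8.64 in the mutants, against 11.11, 11.45 and 11.45 in the controls. Every mutant lay below every control, and mutant 1 stood closer to the controls than to the other mutants. It fell by 2.13 on the log2 scale (standard error 0.47, adjusted p = 0.0376 from limma), to 22.8% of the control level. With each mouse left out in turn the difference ran from -2.74, without mutant 1, to -1.81, without mutant 2. As these are whole livers, fewer cells that express a gene and less of its RNA per cell cannot be told apart. The related lectin gene Mbl1 read 10.23, 10.61 and 9.95 in mutants, against 10.86, 10.72 and 10.60 in controls, and did not pass the test (-0.46, adjusted p = 0.198 from limma).

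F9, the vitamin K-dependent protease missing in hemophilia B in humans, read 10.42, 9.84 and 9.98 in mutants and 10.95, 11.01 and 10.98 in controls. The control mice differed by little (SD 0.03, n = 3), and all mutants lay below them. F9 fell by 0.90 on the log2 scale (standard error 0.21, adjusted p = 0.0409 from limma), to 53.7% of the control level.

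Hc, which encodes C5, the protein whose cleavage starts the terminal complement pathway, was higher in every mutant, at 12.28, 12.80 and 13.06, against 11.91, 11.46 and 11.45 in controls. Its rise of 1.10 (standard error 0.26, adjusted p = 0.0415 from limma) was 2.15-fold. It did not pass with quantile normalization (1.02, adjusted p = 0.0558 from limma) or with median centring (0.94, adjusted p = 0.0663 from limma).

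Itih3, which encodes a heavy chain of the inter-alpha-trypsin inhibitor family, read 12.83, 13.18 and 13.36 in mutants, against 12.37, 12.02 and 12.06 in controls, with no overlap. It rose by 0.98 (standard error 0.21, adjusted p = 0.0376 from limma) or 1.97-fold. With median centring its adjusted p was 0.0614 from limma (0.81).

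**Figure D2:**
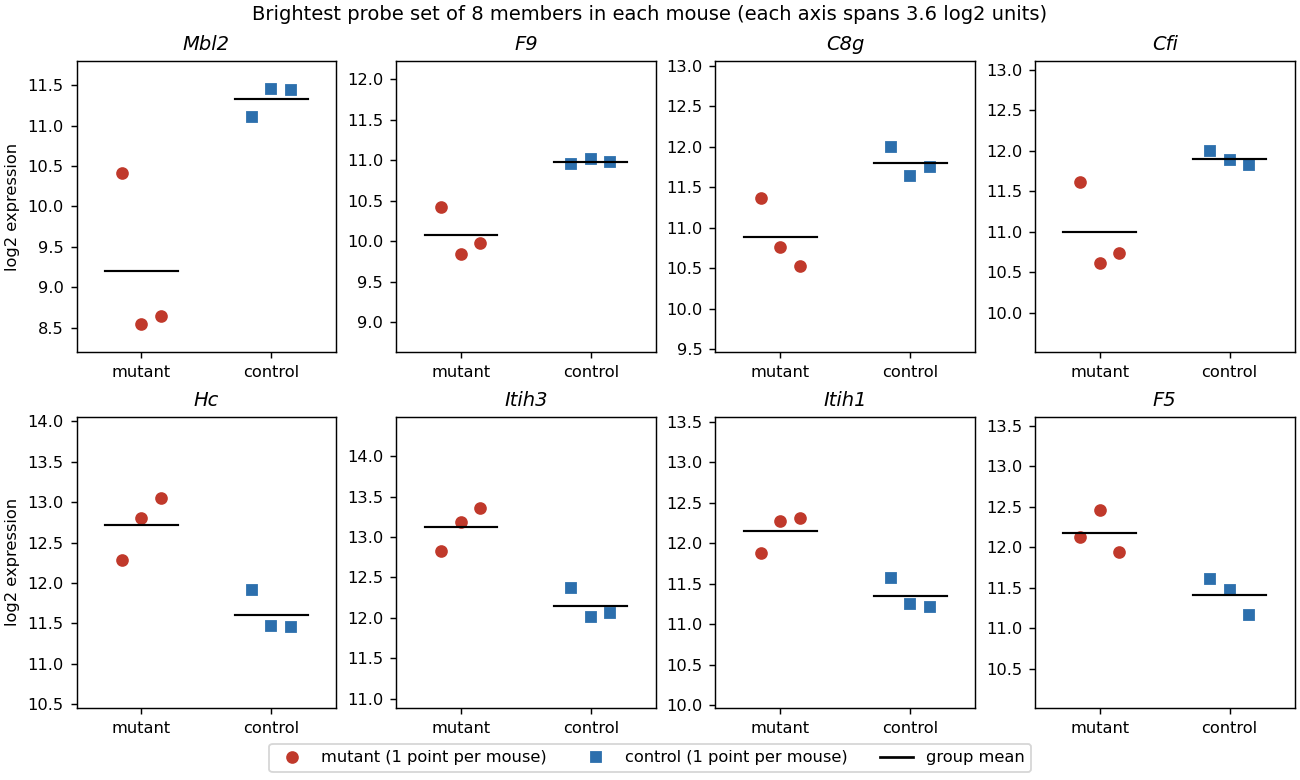
Log2 value (vertical axis) of the brightest probe set of 8 members in each of 3 mutants (circles, left) and 3 controls (squares, right), with a line at each group mean. All 8 are from the 16 members whose groups do not overlap (38.1% of members, beside 37.4% of all genes). The other probe set of F5, not drawn, differed by -1.07. For Mbl2 mutant 1 sits at 10.41, apart from the other mutants at 8.55 and 8.64.

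In the coagulation cascade, F9 was the only 1 of 19 genes that passed the test, beside 9.03% of all genes. The median difference of the class was -0.18. F2, which encodes prothrombin, read 12.46, 12.26 and 12.39 in mutants and 12.52, 12.50 and 12.64 in controls. All mutants lay below all controls, by 0.18 on average, and the test was not passed (adjusted p = 0.523 from limma). Other proteases that act before thrombin differed by 0.22 for F7, 0.07 for F10, 0.05 for F11, -0.26 for F12 and 0.25 for the prekallikrein gene Klkb1. These values are from the brightest probe sets, where adjusted p from limma was above 0.3 for each gene. On these, only F12 had no overlap between the groups (10.37, 10.54 and 10.47 in mutants, against 10.82, 10.66 and 10.69 in controls). On another probe set of F10 every mutant lay below every control (-1.12). Kng1, for the kininogen that carries bradykinin, differed by -0.16, and whether its probe sets also read the mouse paralog Kng2 was not tested. F13b, for the carrier subunit of the factor that cross-links fibrin, differed by -0.08.

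F5, the cofactor of factor X in the activation of prothrombin, gave opposite readings. Its brightest probe set read 12.12, 12.46 and 11.95 in mutants, against 11.61, 11.47 and 11.17 in controls (0.76, adjusted p = 0.0635 from limma). Its other probe set read 9.28, 8.62 and 8.44 in mutants, against 9.86, 9.78 and 9.93 in controls (-1.07). The groups did not overlap on either probe set, so no direction can be given for F5 as a gene.

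The fibrinogen chain genes Fga, Fgb and Fgg, which lie side by side on mouse chromosome 3, varied together among the mice. Fgb read 12.56, 11.10 and 11.04 in mutants, against 12.11, 12.08 and 12.43 in controls, and Fga read 12.94, 12.33 and 12.28 in mutants, against 12.73, 12.86 and 12.92 in controls. Fgg read 12.80, 11.999 and 12.06 in mutants, against 12.30, 12.38 and 12.55 in controls. For each chain mutant 1 was the highest of the 6 arrays and mutants 2 and 3 the lowest. None passed the test (Fga -0.32, Fgb -0.64 and Fgg -0.12, adjusted p = 0.377, 0.312 and 0.778 from limma). Without mutant 1 the difference of Fgb was -1.14 (adjusted p = 0.0151 from limma), and without mutant 2 that of Fgg was 0.02.

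Among the genes that restrain clotting or dissolve clots, none passed the test, beside 9.03% of all genes. Serpinc1, for antithrombin, read 12.90, 12.62 and 12.69 in mutants, against 12.97, 13.04 and 13.03 in controls (-0.28, adjusted p = 0.318 from limma). Plg, for plasminogen, the precursor of the enzyme that dissolves fibrin, read 12.61, 12.40 and 12.30, against 12.70, 12.74 and 12.71 (-0.28, adjusted p = 0.319 from limma). Serpinf2, for the antiplasmin that blocks it, read 10.83, 10.44 and 10.23 in mutants, against 11.08, 11.004 and 10.998 in controls (-0.52, adjusted p = 0.134 from limma). In these 3 genes every mutant lay below every control by a small margin, and 14.1% of all genes had this order. In the coagulation class 7 of 19 genes had no overlap (36.8%), 6 lower and 1 higher, beside 37.4% of all genes. Serpind1, for heparin cofactor II, spread the most among the mutants of this class, with 9.92, 7.77 and 7.60, against 8.82, 8.88 and 9.17 in controls (-0.53, adjusted p = 0.567 from limma). Pros1, for the anticoagulant protein S, had 8.16, 6.99 and 7.38 in mutants, against 8.14, 7.95 and 7.93 in controls (-0.50), and Proc, for protein C, differed by 0.22.

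In complement 1 of 14 genes fell (Mbl2), 1 rose (Hc) and 12 did not pass, with a median difference of -0.48, the lowest of the 3 classes, and 10 negative values. At an unadjusted p under 0.05 from limma 2 genes were higher and 5 lower. Of all genes 9.03% passed the adjusted p and 31.0% the unadjusted one. The proteases that act after the lectins gave readings of both signs. On the brightest probe set Masp1 read 9.44, 8.31 and 8.40 in mutants, against 9.85, 9.63 and 9.93 in controls (-1.09, adjusted p = 0.0643 from limma), whereas its other 4 probe sets averaged 0.47 to 0.90 higher in mutants, 1 of them without overlap. On its brightest probe set Masp2 read 10.80, 10.56 and 11.38, against 10.10, 10.21 and 9.94 (0.83, adjusted p = 0.0678 from limma), and its other probe set read 8.28, 6.50 and 6.71, against 8.29, 8.26 and 8.45 (-1.17). Both genes make several proteins by alternative splicing, MASP-1, MASP-3 and MAp44 from Masp1 and MASP-2 and MAp19 from Masp2, and which of them each probe set reads is unknown here.

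Of the complement genes that restrain the cascade, Cfi, Vtn and Serping1 did not pass the test. Cfi, for the protease factor I that inactivates C3b and C4b, read 11.62, 10.62 and 10.74 in mutants, against 11.999, 11.89 and 11.82 in controls (-0.91, adjusted p = 0.0756 from limma). Vtn, for vitronectin, an adhesion protein that also blocks the terminal pore, read 12.29, 11.50 and 11.32, against 12.47, 12.29 and 12.35 (-0.67, adjusted p = 0.142 from limma), with -0.45 on its other probe set. Serping1, for the C1 inhibitor that restrains both complement and the contact system, read 11.31, 10.62 and 10.60 in mutants, against 11.33, 11.27 and 11.45 in controls (-0.50). In each of these 3 genes mutant 1 was the closest to the controls and mutants 2 and 3 lay lower. Cfb, for the protease of the alternative route, differed by -0.34 (adjusted p = 0.366 from limma).

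None of C6, C8a, C8b, C8g and C9, whose products form the terminal pore, passed the test. C8a and C8b, neighbours on mouse chromosome 4 whose products join in complement C8, differed by 0.31 (adjusted p = 0.414 from limma) and -1.15 (adjusted p = 0.254 from limma). C8b read 9.04, 7.004 and 6.46 in mutants, against 9.07, 7.998 and 8.88 in controls, so that mutants 2 and 3 lay below all others and mutant 1 among the controls. C8g, for the third chain of C8, read 11.37, 10.76 and 10.53, against 11.997, 11.64 and 11.76 (-0.91, adjusted p = 0.0605 from limma), with no overlap. C6 and C9, which join the pore before and after C8, differed by -0.41 and 0.31 with overlapping groups. Whether C8a differed from C8b or C8g in its response was not tested.

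Of the 9 genes of carrier and other plasma proteins, Itih3 rose and none fell, beside 9.03% of all genes called. Their median difference was -0.04. Itih1, the neighbour of Itih3 on mouse chromosome 14 and another heavy chain of the same inhibitor family, read 11.88, 12.27 and 12.31 in mutants, against 11.57, 11.24 and 11.21 in controls, and did not quite pass (0.81, adjusted p = 0.0516 from limma). It passed when the variance was fitted with trend and robust options (adjusted p = 0.0407 from limma) and with age as a covariate (adjusted p = 0.0486 from limma). It also passed with bright probe sets alone and without mutant 1. It did not pass with quantile normalization (adjusted p = 0.0725 from limma) or with median centring (adjusted p = 0.0997 from limma). Nor did it pass with averaged probe sets, with the replicate block or without any other single mouse. Itih4, on the other side of Itih3 in the same cluster, read 11.94, 11.53 and 12.20 in mutants, against 12.02, 11.57 and 11.75 in controls (0.10), and Itih2, which lies elsewhere, differed by -0.21. Ambp, whose product is cut into the light chain bikunin of this family and alpha-1-microglobulin, differed by -0.25.

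Alb, for albumin, whose promoter drives cre in the mutants, read 14.20, 13.64 and 13.40 in mutants, against 13.91, 14.04 and 14.06 in controls. The groups overlapped (-0.25, standard error 0.24, adjusted p = 0.51 from limma), with mutant 1 the highest of the 6 arrays and mutants 2 and 3 the lowest. Ttr, for transthyretin, the carrier of thyroid hormone, read 14.07, 13.95 and 13.91 in mutants, against 14.003, 14.03 and 14.03 in controls (-0.04, adjusted p = 0.891 from limma). Rbp4, for the retinol carrier that travels with transthyretin, differed by -0.10, and Ahsg, for fetuin A, a binder of calcium phosphate, by 0.21. Values of Alb and Ttr lay near the highest value of any probe set on these arrays, 14.49 to 14.63, and whether the arrays still respond in proportion there was not tested.

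**Figure D3:**
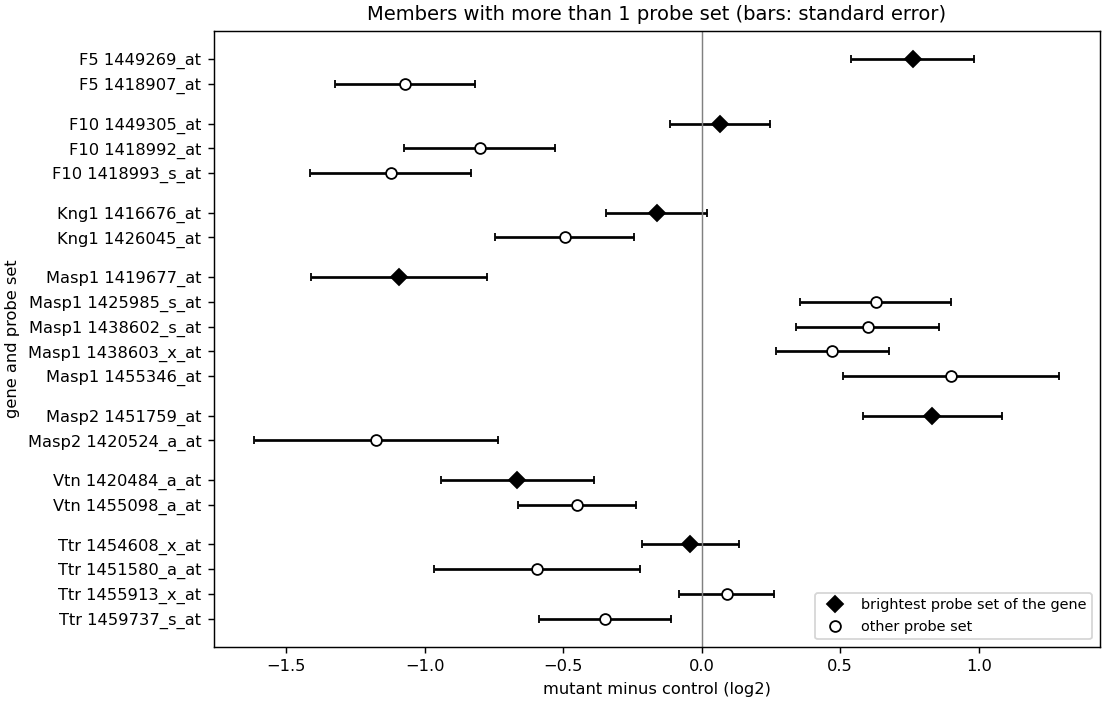
Difference between mutants and controls (horizontal axis, log2, bars: standard error from limma) on each of the 20 probe sets of the 7 members that have more than 1 (vertical axis, gene and probe set, with diamonds for the brightest). For F5, F10, Masp1, Masp2 and Ttr the probe sets of 1 gene fall on both sides of 0.

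A single probe set read 35 of the 42 genes. Among these were all 4 called members, F9, Hc, Mbl2 and Itih3, so their direction could not be checked on another probe set. Of the 7 genes with several, 5 had probe sets of both signs, F5, F10, Masp1, Masp2 and Ttr. F10 differed by 0.07 on its brightest probe set, and by -0.80 and -1.12 on the others, the last without overlap. No direction can therefore be given for F10 as a gene. The probe sets of Ttr lay between -0.59 and 0.09. Only Kng1 and Vtn gave the same sign throughout. All 42 genes were brighter than the median of each array, and 2 of the 55 probe sets were not.

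**Figure D4:**
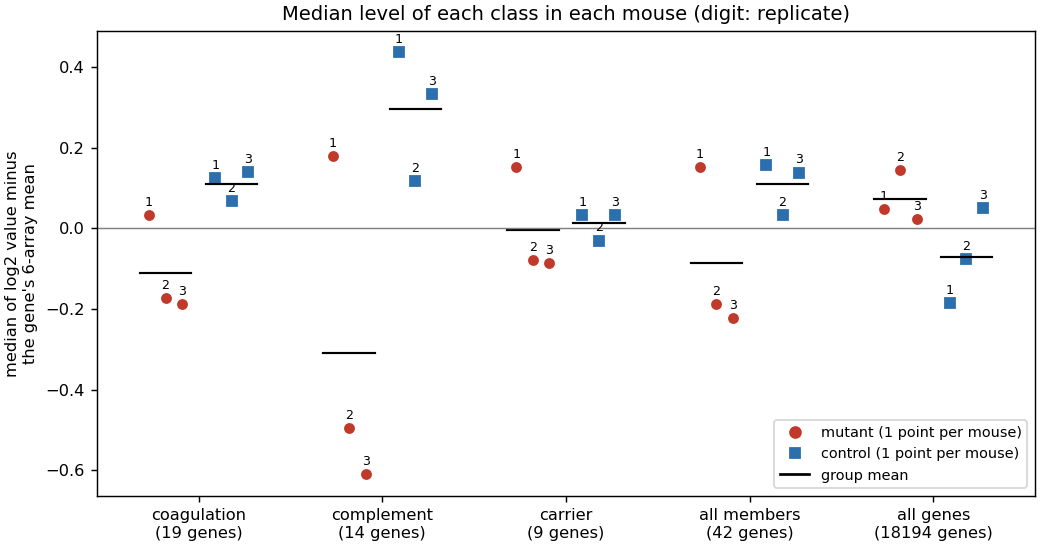
Median over the genes of each class of log2 values relative to the average of the gene on all arrays (vertical axis) for every mutant (circles) and control (squares), with the replicate number above each point and a line at each group mean. In complement mutant 1 sits at 0.18 with the controls at 0.12 to 0.44, and mutants 2 and 3 sit at -0.50 and -0.61.

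In each class the medians of the mutants spread more widely than those of the controls. Relative to the average of each gene on all arrays, the median of the complement class was 0.18, -0.50 and -0.61 for the mutants and 0.44, 0.12 and 0.33 for the controls. That of the coagulation class was 0.03, -0.17 and -0.19, against 0.13, 0.07 and 0.14, and that of the carrier class was 0.15, -0.08 and -0.09, against 0.03, -0.03 and 0.03. Mutant 1 lay within the range of the controls in complement, below it in coagulation and above it in the carriers, and was the mutant nearest to the control mean in 31 of 42 members (73.8%), against 51.5% of all genes. Over all genes the medians ran otherwise, at 0.05, 0.15 and 0.02 in mutants and -0.19, -0.08 and 0.05 in controls. On Gapdh 3' mutant 1 lay with the controls and mutants 2 and 3 below them, on Gapdh 5' all mutants lay above all controls, and the part of either in the class medians was not tested. Without mutant 1 the members called were 14 (4 of coagulation, 8 of complement and 2 carriers), and the genes called on the whole array were 3023 of 18194, beside 1643 with all mice. The complement class then had a median of -0.77.

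The further genes of these systems are set beside the 9.03% of all genes called and the 37.4% without overlap. Of 21 further measured genes of coagulation and fibrinolysis 1 passed on its brightest probe set, 7 were higher and 3 lower at an unadjusted p under 0.05 from limma, and 10 had no overlap. The called gene was Lman1, for a receptor that carries factors V and VIII out of the endoplasmic reticulum, at 11.77, 12.19 and 11.92 in mutants, against 11.21, 10.95 and 10.36 in controls (1.12, adjusted p = 0.041 from limma), but its other 4 probe sets differed by -1.61, -0.80, -0.14 and -0.07, so no direction can be given for Lman1 as a gene. Of 22 further complement genes 1 rose, 4 were higher and 4 lower at an unadjusted p under 0.05 from limma, and 7 had no overlap. The called gene was Cpn1, for the small subunit of carboxypeptidase N, which inactivates the fragments C3a and C5a. It read 10.60, 10.91 and 11.18 in mutants, against 9.95, 10.01 and 10.09 in controls (0.88, adjusted p = 0.042 from limma). The other probe set of Cpn1 differed by 0.58, with overlap. Cpn2, for the other subunit of this enzyme, lay lower in every mutant than in every control but did not pass (-1.35, adjusted p = 0.0791 from limma). Of 16 other plasma proteins of liver 1 rose and 1 fell, 2 were higher and 2 lower at an unadjusted p under 0.05 from limma, and 7 had no overlap. Afm, for afamin, a relative of albumin that binds vitamin E, read 11.73, 12.20 and 12.39 in mutants, against 11.30, 11.09 and 11.06 in controls (0.96, adjusted p = 0.0417 from limma). Serpina6, for the carrier of corticosteroids in plasma, fell, at 8.85, 7.41 and 7.32 in mutants, against 9.73, 9.93 and 10.24 in controls (-2.11, adjusted p = 0.0292 from limma). On the brightest probe sets of the 4 called genes (Lman1, Cpn1, Afm and Serpina6) the groups did not overlap. In each of these 4 mutant 1 was the mutant nearest to the controls. The median differences of these lists were 0.29, 0.20 and 0.05, beside 0.17 over all genes.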

How the data were processed

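Each of 6 livers, 3 of mutants and 3 of controls by their labels, was measured on its own Affymetrix mouse array. Values are on the log2 scale, as the authors deposited them after normalization and a perfect-match dChip model, and were not rescaled. They run from 0 to 14.63 and came without detection calls or background, so signal over background is unknown. A C. elegans array is stated in the methods, whereas the probe set names belong to a mouse array. For dChip, neither version nor baseline is stated in the sources used here.

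Of 45101 probe sets, 932 with several symbols and 9211 with none in the platform annotation were set aside. The brightest probe set of each of 18194 genes, and separately all 34958 probe sets with 1 symbol, were fitted in R 4.3.3 by limma 3.58.1 (lmFit, then eBayes, no covariate), and the procedure was tested on simulated data. Promoter windows are from RefSeq. The number of arrays limits the precision. Each animal had 1 array, so p-values rest on a spread in which animals and array handling are mixed. The BioB controls and the 3' minus 5' difference of Gapdh separated the groups, whereas that of Actb overlapped. Differences in RNA or array handling between the groups cannot be told apart from genotype here.

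The members, their classes and all lists were chosen with earlier results of these data known. Named are members that passed the adjusted p, had groups without overlap or were among the 10 of largest difference, beside Alb, Ttr, F2, Fga, Fgb, Fgg, Serpinc1, C3, Hc, Vtn and Pdss2, and of each further list at most 4 called genes. Members named outside this rule, to complete the classes, and Cpn2 were chosen after their values were seen. Alternatives tried were quantile scaling, centring on the median, dropping dim probe sets, averaging the probe sets of a gene, the trend and robust options of eBayes, pairing by replicate number, an age term, and omitting each mouse. Figures were drawn with matplotlib 3.10.9.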

Additional observations from a re-analysis of the deposited data

How the results depend on the processing

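Of the 4 called genes, F9, Mbl2 and Itih3 each passed limma's adjusted p in 6 of 14 alternatives and Hc in 4, and none of them turned its direction, with adjusted p from 0.0132 to 0.151 for F9, from 0.00467 to 0.135 for Mbl2, from 0.017 to 0.149 for Itih3 and from 0.0144 to 0.152 for Hc. With each mouse left out in turn, the count of called members ran from 0 to 14 and their median difference from -0.29 to -0.15. The count was 14 without mutant 1 and 0 without each other mouse. In the same runs the coagulation class had 0 to 4 called genes and a median of -0.24 to -0.13, complement 0 to 8 and -0.77 to -0.34, and the carriers 0 to 2 and -0.09 to -0.02. The number of called probe sets ran from 0 to 15. Median centring gave 2 called members (complement 1, carriers 0), where 1366 of 18194 genes passed. Medians were then -0.39 over all members, -0.34 for coagulation and -0.20 for the carriers. With bright probe sets alone, where fewer genes were tested, 9 members were called (coagulation 2, complement 5, carriers 2) and 9 probe sets, where 2393 of 11711 genes passed. When the probe sets of a gene were averaged 1 member was called (coagulation 0, with a median of -0.28, and complement 0), where 502 genes passed, and F5 (-0.15), Masp1 (0.30) and Masp2 (-0.17) turned their direction. The trend and robust options called 2 carriers and 3 probe sets, where 1904 genes and 1949 probe sets of the whole array passed. Age as a covariate called 2 carriers and 4 probe sets, where 2122 genes and 2455 probe sets passed. With the replicate block 0 members were called (coagulation 0, complement 0, carriers 0), and 11 had an unadjusted p under 0.05 from limma. On the whole array 0 of 18194 genes passed with the block and 4363 had such a p. The labels do not state that mice of the same number are pairs. Same-numbered mutants and controls deviated from their group means with correlations of 0.06, -0.50 and -0.56, against 0.62 for mutant 2 with control 3. Such deviations sum to 0 within each group of 3, so these correlations cannot show whether mice were paired. The labels name control 1 as concurrent with mutant 3 (0.45) and pair no other mice, so no block by that pairing was fitted. Without both mutant 2 and control 3, a choice made after seeing the data because these arrays stood apart, 0 members were called (coagulation 0, complement 0, carriers 0), with 9 at an unadjusted p under 0.05 from limma, and Fgg turned to 0.0925. On the whole array 51 of 18194 genes passed in that run. With each mouse left out in turn Fgg ran from -0.38 to 0.020, the highest value being that without mutant 2. The cause of these shifts was not tested. Of 308 comparisons of the 22 named members with an alternative, 254 kept their direction and side of the threshold, 34 lost the call, 15 gained one and 5 turned. The number of arrays, the absence of background values and the array controls that differed by group limit all of these results.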

Other observations

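Of 12 measured transcription factors of hepatocytes, which switch on many genes of plasma proteins, 1 fell and none rose, beside 9.03% of all genes called. Foxa1, a factor that opens chromatin in liver, read 6.94, 5.90 and 7.01 in mutants 1 to 3, against 8.46, 8.37 and 7.64 in controls 1 to 3, with no overlap (-1.54, standard error 0.36, adjusted p = 0.0412 from limma). The median difference of these factors was -0.11. In 8 of the 12 the groups did not overlap, with 2 higher and 6 lower in mutants, beside 37.4% of all genes without overlap.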
